A study of Mus musculus with 6 samples.

Results

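The estrogen receptor genes of adult mouse aortic EC were examined with their closest relatives and 2 classical target genes, 8 genes of the 54429 in the deposited table. They were Esr1 and Esr2, which encode estrogen receptors alpha and beta, Gper1, which encodes a membrane receptor for estrogen, the estrogen-related receptors Esrra, Esrrb and Esrrg, and the target genes Pgr and Greb1. The genes were taken from the table by symbol. They were chosen because Esr1 was nearly silent in control cells and much higher after Meis1, so the difference in Esr1 is given here as a description with no test. The other 7 were added as relatives or targets of Esr1, with earlier results of these data known. Of these, Esrra and Greb1 had enough counts to be tested, Greb1 only through its counts in Meis1-OE. The question was whether Esr1 changed alone or with the rest of its family and with genes that estrogen receptor alpha is known to drive.

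Estrogen receptors alpha and beta are nuclear receptors, proteins held by chaperones until the steroid binds them, after which they pair on DNA and recruit coactivators. The DNA element they prefer is a palindrome of GGTCA and its reverse complement with a spacer between, written GGTCANNNTGACC. In endothelium estrogen receptor alpha is known for raising nitric oxide synthase activity from the membrane and for promoting repair of the vessel lining. The estrogen-related receptors share its fold but bind no estrogen, and are best known as drivers of mitochondrial genes.

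The comparison was of 2 conditions, with 3 libraries each, by RNA-seq of ribodepleted total RNA. Primary aortic EC of adult wild type C57BL/6 mice, bought as cells and grown in serum-containing medium, received a lentiviral vector carrying Meis1 (Meis1-OE) or a YFP vector (YFP-CTRL), so that the controls were transduced too. Transduction was ended at 48 h, and cells positive for YFP, CD31 and VEC were sorted at 72 h and expanded to confluency before RNA was taken. The promoter in the vectors, the sex of the mice and the number of mice behind the cells were not given in the sources used here, and the p-values measure the spread between cultures.

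Values of single libraries are given in the order A, B, C of the column letters. Totals ran from 34176592 to 47956569 counts per library, so that the floor of 3 counts, at or under which a gene was treated as not detectable, was 0.0648 to 0.0883 CPM (counts for every 1000000 of the TMM-scaled library size). Meis1, the transduced gene, had 135325, 157828 and 149221 counts in Meis1-OE and 39, 58 and 85 in YFP-CTRL, and reads of the vector and of the resident gene were not separated. The controls differed widely from each other. Their levels of the proliferation gene Mki67 were 63.8, 205 and 589 CPM, against 628 to 672 CPM in Meis1-OE. Several of the results that rest on YFP-CTRL library C, the control nearest to Meis1-OE in this gene, are also given without it. Leaving it out gave more calls over the whole table than leaving out any other library. Endothelial markers were present in every library, with summed levels of 3248 to 4094 CPM in Meis1-OE and 4368 to 5968 CPM in YFP-CTRL. Of the 9, Vwf was called higher (log2 fold change 3.12, edgeR adjusted p = 0.0120), Tek was called lower (-0.78, 0.0351) and 7 did not pass. Over all genes tested, 6.87% passed in either direction. Kdr (-1.23, edgeR adjusted p = 0.0504) and Cdh5 (-0.70, 0.0535) were just over the threshold, with all Meis1-OE libraries under all controls. Log2 fold changes were positive for 5 of the 9 markers and negative for 4.

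The starts of Esr1 and Greb1, the 2 members whose libraries did not overlap between the conditions, are shown first. Over all genes tested, 33.1% did not overlap, and Esr1 was chosen for its difference. RefSeq lists Esr1 on the plus strand of chr10:4611989-5005633 and Greb1 on the minus strand of chr12:16670615-16801394 (GRCm38.p6, the assembly of the mm10 build named in the submitters' processing notes), and neither overlaps another listed gene. The 250 bases before each of 2 listed starts of each gene are printed 5′ to 3′ on the strand of the gene, with GGTCA or its reverse complement in capitals. The Esr1 windows are chr10:4611739-4611988 and chr10:4709908-4710157, and the Greb1 windows are chr12:16800887-16801136 and chr12:16757240-16757489.
Esr1 start 1: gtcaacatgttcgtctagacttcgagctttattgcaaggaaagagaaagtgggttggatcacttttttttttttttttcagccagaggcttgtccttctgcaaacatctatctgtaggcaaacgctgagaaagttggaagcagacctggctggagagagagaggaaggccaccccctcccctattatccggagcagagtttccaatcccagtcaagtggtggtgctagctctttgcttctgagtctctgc
Esr1 start 2: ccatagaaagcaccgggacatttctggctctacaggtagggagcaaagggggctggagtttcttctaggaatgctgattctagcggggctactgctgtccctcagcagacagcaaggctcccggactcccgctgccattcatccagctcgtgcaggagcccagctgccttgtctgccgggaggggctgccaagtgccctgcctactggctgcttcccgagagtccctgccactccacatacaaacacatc
Greb1 start 1: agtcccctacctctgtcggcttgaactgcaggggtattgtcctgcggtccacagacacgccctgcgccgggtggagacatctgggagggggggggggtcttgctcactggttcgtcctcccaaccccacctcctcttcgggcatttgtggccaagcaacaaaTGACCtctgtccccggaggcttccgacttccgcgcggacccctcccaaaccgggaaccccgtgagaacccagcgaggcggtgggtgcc
Greb1 start 2: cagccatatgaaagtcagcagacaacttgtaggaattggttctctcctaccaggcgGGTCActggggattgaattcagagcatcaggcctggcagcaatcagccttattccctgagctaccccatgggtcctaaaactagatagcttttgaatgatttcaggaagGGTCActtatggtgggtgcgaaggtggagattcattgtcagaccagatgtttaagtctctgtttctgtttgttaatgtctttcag
On both strands, 4 motifs were searched for in all 32851 such windows in the RefSeq table. GGTCA, which is also contained in the next 2, was in 35.2% of windows, the palindrome GGTCANNNTGACC in 0.0639%, AAGGTCA, the site of estrogen-related receptors, in 4.08%, and TGACAG, the core bound by Meis proteins, in 15.9%. Neither Esr1 window held any of the 4. The first Greb1 window held 1 GGTCA, whose first base lay 88 bases before the start, and the second held 2, of which the first began 194 bases before the start. Among the 14 windows of the 8 members, none held the palindrome, and TGACAG was in 1 window of Esrra and 1 of Esrrb. These matches describe letters and do not show binding.

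Esr1, the gene for estrogen receptor alpha, had 430, 889 and 1048 counts in Meis1-OE and 7, 3 and 0 counts in YFP-CTRL. All Meis1-OE libraries lay far above all controls, and among the controls only library A was over the floor. In CPM of the plain library total, Esr1 stood at 10.4, 20.2 and 23.0 in Meis1-OE. In YFP-CTRL it stood at 0.205 (95% exact binomial interval 0.0823 to 0.422), 0.0673 (0.0139 to 0.197) and 0 (0 to 0.0769). Intervals and floors cover counting error only. Within Meis1-OE the Esr1 level of library A was under that of B and C. Esr1 was chosen for its difference between the conditions, so its distance from the controls is a description only.

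After TMM normalization, the mean level of Esr1 was 17.2 ± 6.93 CPM in Meis1-OE and 0.0932 ± 0.104 CPM in YFP-CTRL (SD, n = 3 each). The fitted log2 fold change was 7.62 with a standard error of 0.71. The ratio of the pooled counts over the TMM-scaled library sizes was 207, with an interval from counting of 112 to 432, and it was 129 (69.9 to 269) when YFP-CTRL library C was left out. In bulk RNA, a gene switched on in few cells and a gene raised a little in all cells cannot be told apart.

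**Figure D1:**
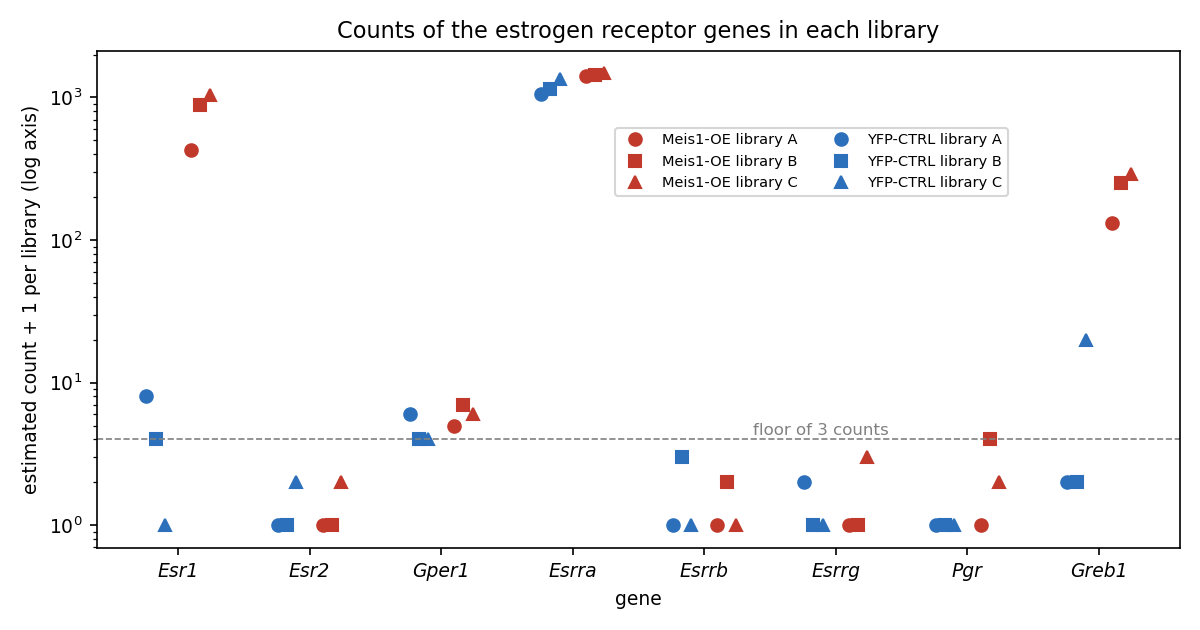
Estimated count plus 1 of each of the 8 genes (log axis) in each of the 6 libraries, red for Meis1-OE and blue for YFP-CTRL, with the shape marking the library letter and the dashed line the floor of 3 counts. Esr1 and Greb1 lie far apart between the conditions, Esrra lies at 1050 to 1476 counts, and the other 5 genes have at most 6 counts in every library.

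No change was detectable in the sister receptors at this depth. Esr2 had 0, 0 and 1 count in Meis1-OE and the same 3 values in YFP-CTRL. Gper1 had 4, 6 and 5 counts in Meis1-OE and 5, 3 and 3 in YFP-CTRL, so that the libraries overlapped at a level around the floor. Esr2 was therefore not detectable in either condition, and no fold is given for either gene. Gper1 (chr5:139423150-139427800) overlaps a listed gene of uncertain function, 3110082I17Rik, and whether the counting used strand is not stated.

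Of the estrogen-related receptors, Esrra was abundant and did not pass the test. Esrra had 1406, 1426 and 1476 counts in Meis1-OE and 1050, 1141 and 1356 in YFP-CTRL. Scaled to library size the libraries overlapped, with 31.4 ± 0.560 CPM in Meis1-OE and 29.6 ± 1.49 CPM in YFP-CTRL (SD, n = 3 each). The log2 fold change was 0.08 with a standard error of 0.11 (edgeR quasi-likelihood test, Benjamini-Hochberg adjusted p = 0.653), and a p of this size does not show that the levels were equal. The pooled counts of Esrra, scaled likewise, stood in a ratio of 1.06 with a counting interval of 1.02 to 1.11. Esrra (chr19:6910977-6922048) overlaps Trmt112 and a microRNA gene, Mir6990, so some of its counts may belong to them. Esrrb had 0, 1 and 0 counts in Meis1-OE and 0, 2 and 0 in YFP-CTRL, and Esrrg had 0, 0 and 2 in Meis1-OE and 1, 0 and 0 in YFP-CTRL. Neither was detectable in either condition.

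The 2 target genes differed from each other. Greb1, which is induced by estrogen in breast and uterus and whose product is a cofactor of estrogen receptor alpha, had 131, 250 and 288 counts in Meis1-OE and 1, 1 and 19 counts in YFP-CTRL. The conditions did not overlap, and the highest control was library C, in which no Esr1 count was found. The level of Greb1 was 4.86 ± 1.77 CPM in Meis1-OE and 0.157 ± 0.226 CPM in YFP-CTRL (SD, n = 3 each), with a log2 fold change of 4.83, a standard error of 0.80 and an edgeR adjusted p of 0.0176. It was higher in 3 of 3 Meis1-OE libraries. Greb1 passed the filter on low counts only through Meis1-OE, so a gene this low in controls could be tested only where it was raised. Of all 16065 genes tested, 4.14% were higher in Meis1-OE at this threshold, an adjusted p of 0.05, and 33.1% had libraries that did not overlap.

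The size of the Greb1 change moved most without YFP-CTRL library C, and its call was lost without some of the other libraries. The ratio of the pooled Greb1 counts, scaled likewise, was 27.9 (counting interval 18.1 to 45.3) and became 182 (50.2 to 1506) without YFP-CTRL library C, where the log2 fold change was 7.34 with an edgeR adjusted p of 0.000925. The adjusted p rose past 0.05 when a single library was left out, to 0.0875 without Meis1-OE library B, 0.0839 without Meis1-OE library C and 0.0725 without YFP-CTRL library B. With the proliferation score as a covariate the log2 fold change was 3.40 (edgeR adjusted p = 0.0352).

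Pgr, the progesterone receptor gene and the best known target of estrogen receptor alpha in the uterus, had 0, 3 and 1 counts in Meis1-OE and 0 in each YFP-CTRL library. It was at or under the floor in all 6 libraries, and no fold is given. Of the 7 genes other than Esr1, then, Greb1 was called higher, Esrra was tested and not called, and 5 were too low to be tested. Over all genes tested, 4.14% were called higher and 6.87% in either direction. Greb1 could be tested only through its counts in Meis1-OE, so this count is not a result about the family.

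Greb1 and Esr1 took the same order across the Meis1-OE libraries, lowest in A and highest in C. Plcb2, Gbp10 and Vwf took this order too, while Krt19 and Aqp8 were highest in A and Vdr, Rspo3, Stra6 and Islr in B. Of these, Plcb2, Gbp10, Aqp8, Rspo3, Stra6 and Islr were picked, as described below, for their likeness to Esr1 in these same libraries. For every 100 counts of Esr1, the Meis1-OE libraries held 30.5, 28.1 and 27.5 counts of Greb1. With 3 libraries, these values are given as a description.

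**Figure D2:**
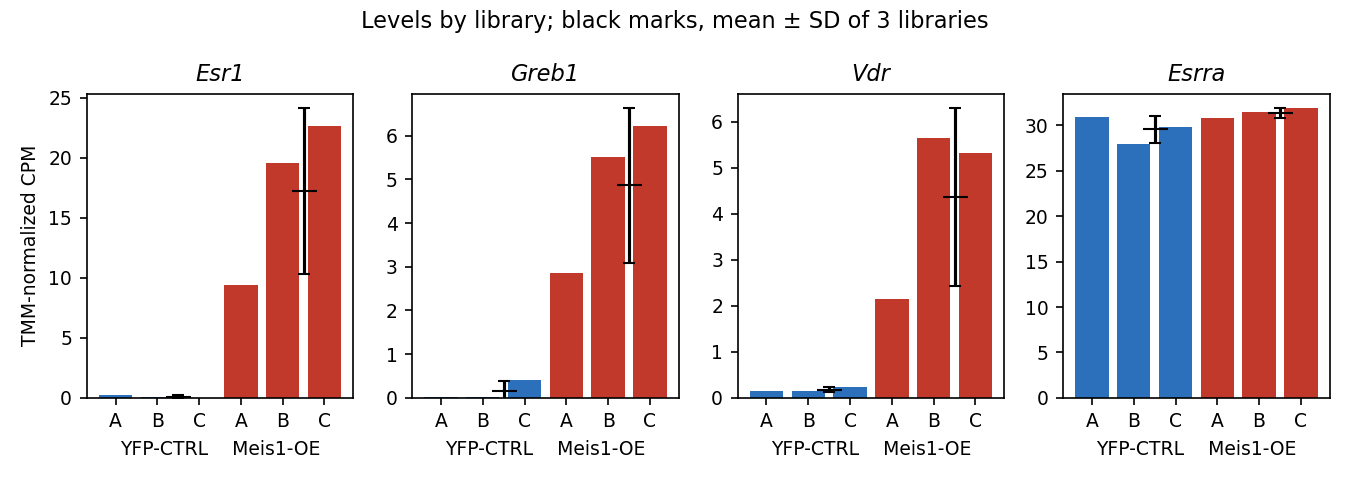
TMM-normalized CPM of Esr1, Greb1, Vdr and Esrra in each YFP-CTRL (blue bars) and Meis1-OE (red bars) library, each panel with its own axis from 0, with black marks for the mean ± SD of 3 libraries. Meis1-OE library A is the lowest of its condition for Esr1, Greb1 and Vdr, while Esrra lies at 28.0 to 31.9 CPM.

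Esr1 was next placed among all 49 nuclear receptor genes of the mouse, comparing levels per kb of exon. In YFP-CTRL, Esr1 stood 32nd at 0.00681 ± 0.00764 CPM per kb, a level that rests on 10 counts. In Meis1-OE it stood 22nd at 1.26 ± 0.506 CPM per kb (SD, n = 3), between Nr2f1 at 1.39 ± 0.134 and Nr4a2 at 0.919 ± 0.151 CPM per kb, and these neighbours did not differ from it beyond their spread. Esrra stood 9th in YFP-CTRL and 8th in Meis1-OE, at 11.6 ± 0.587 and 12.3 ± 0.221 CPM per kb. Esr1 in Meis1-OE thus stayed well below Esrra and the receptors of highest level per kb, which were Nr1d1 in YFP-CTRL at 37.7 and Nr4a1 in Meis1-OE at 44.1 CPM per kb. Of the 49 receptors, 28 had over 3 counts in every library, 16 had at most 3 counts in every library, and 6 of these had none.

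Of the 48 receptors other than Esr1, 28 were tested, 1 was higher, 1 was lower and 26 did not pass, with a median log2 fold change of -0.12 against 0.01 over all genes tested. Over all genes, 6.87% passed in either direction and 2.73% were lower. Receptor libraries did not overlap for 4 genes that were higher and 1 that was lower, where 33.1% of all genes tested did not overlap in either direction. At an unadjusted p under 0.05 there were 5 receptors, against 4205 of all 16065 genes tested. Without YFP-CTRL library C the number called was 9, with 2717 genes called higher and 2498 lower over the whole table in place of 665 and 438.

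The receptor that was higher was Vdr, the vitamin D receptor. Vdr had 98, 256 and 246 counts in Meis1-OE and 5, 6 and 11 in YFP-CTRL, so that the lowest Meis1-OE library was far over the highest control. Its level was 4.37 ± 1.93 CPM in Meis1-OE and 0.179 ± 0.0548 CPM in YFP-CTRL (SD, n = 3 each), and the log2 fold change was 4.57 with a standard error of 0.49 (edgeR adjusted p = 0.00489). The pooled ratio was 23.9 (counting interval 15.6 to 38.4), and 29.7 (16.5 to 59.8) without YFP-CTRL library C. Like Greb1, Vdr passed the filter on low counts only through Meis1-OE. Per kb of exon Vdr went from 28th of the receptors to 24th. It remained past the threshold under all 14 alternatives in which it was tested, with a highest adjusted p of 0.0403.

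The receptor that was lower was Rara, the alpha receptor for retinoic acid, at 52.8 ± 2.12 CPM in Meis1-OE and 74.1 ± 5.07 CPM in YFP-CTRL (SD, n = 3 each), and the log2 fold change was -0.49 (edgeR adjusted p = 0.0418). Its counts scaled to library size did not overlap between conditions. The call was lost on library totals, where the adjusted p was 0.0695, and with no filter on low counts, where it was 0.0872, and also without any single Meis1-OE library or control library B.

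The 5 receptors of highest mean CPM were Nr2f2, a regulator of venous identity, Nr3c1, the glucocorticoid receptor, Nr1d1, a repressor of the circadian clock, Rarg, another retinoic acid receptor, and Nr4a1, an immediate early gene. None passed the threshold with all libraries and TMM scaling. Their log2 fold changes were -0.12 for Nr2f2, -0.48 for Nr3c1, -0.55 for Nr1d1, -0.05 for Rarg and 0.59 for Nr4a1, with edgeR adjusted p-values of 0.0953 for Nr4a1 and 0.231 to 0.812 for the other 4. The signs of Nr2f2 and Rarg turned on library totals, and those of Nr2f2, Nr3c1 and Nr1d1 turned with the proliferation score as a covariate. Without YFP-CTRL library C, Nr3c1 and Nr1d1 were called lower, with log2 fold changes of -0.72 and -0.81 (edgeR adjusted p = 0.00201 and 0.0130). Nr4a1 was called higher on library totals (edgeR adjusted p = 0.0417) and without Meis1-OE library A (0.0496). The mineralocorticoid receptor Nr3c2, picked out here after its values were seen, stood at 0.165 CPM per kb in Meis1-OE and 0.291 in YFP-CTRL and did not pass the threshold.

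**Figure D3:**
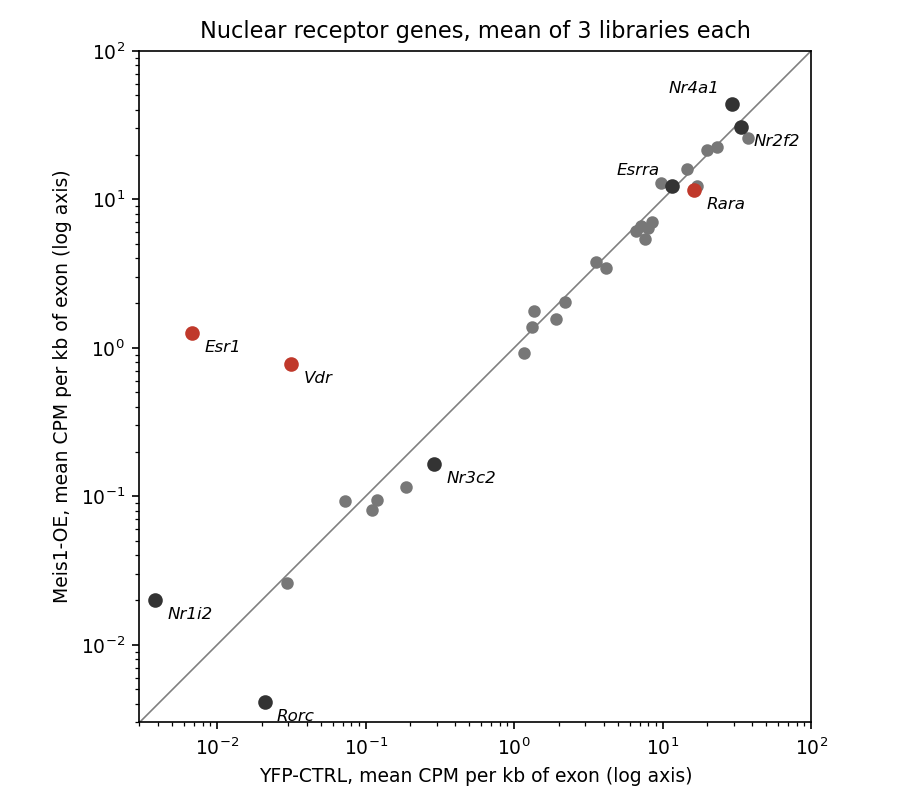
Mean level of nuclear receptor genes in CPM per kb of exon, YFP-CTRL on the horizontal and Meis1-OE on the vertical log axis, each point a gene with over 3 counts in some library and a level above 0 in both conditions, with the line marking equal levels. Esr1 and Vdr, in red, lie far above the line, Rara, in red, a little below it, and the other receptors over 1 CPM per kb lie close to it.

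Estrogen target genes known mainly from breast and uterus went in both directions. Of 35 listed symbols, 34 were in the table, 22 were tested, 6 were higher, 4 were lower and 12 did not pass, where 6.87% of all genes passed in either direction. Their median log2 fold change was -0.02, with 11 genes positive and 11 negative, against a median of 0.01 over all genes. Libraries did not overlap for 6 genes that were higher and 4 that were lower, where 33.1% of all genes tested did not overlap in either direction. The list was assembled with results of these data known, and it shares Rara and Pgr with the receptors and Nrip1 with the coregulators.

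Beside Greb1, the target genes with the largest changes among those past the threshold were Krt19, Slc9a3r1 and Myc. Krt19, a keratin of simple epithelia that is also estrogen-responsive in breast cells, had 1627, 1007 and 871 counts in Meis1-OE and 21, 56 and 97 in YFP-CTRL. Every Meis1-OE library was above every control, but here library A was the highest of Meis1-OE, the opposite of its place for Esr1. The log2 fold change of Krt19 was 4.19 with a standard error of 0.46 (edgeR adjusted p = 0.00520). Markers of epithelium were near 0, with 5 of 6 at or under the floor in every library (Epcam, Krt18, Krt5, Krt14 and Cdh1), and their summed level was 0.0220 to 0.131 CPM in Meis1-OE and 0 to 0.0880 CPM in YFP-CTRL.

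Slc9a3r1, a scaffold protein under the membrane, had 751, 800 and 856 counts in Meis1-OE and 229, 166 and 284 in YFP-CTRL. Its level was 17.5 ± 1.03 CPM in Meis1-OE and 5.69 ± 1.42 CPM in YFP-CTRL (SD, n = 3 each), with a log2 fold change of 1.62 (edgeR adjusted p = 0.00843). Myc, a growth regulator that estrogen induces in breast cells, went the other way. Myc stood at 65.6 ± 5.47 CPM in Meis1-OE and 200.1 ± 79.7 CPM in YFP-CTRL (SD, n = 3 each), with a log2 fold change of -1.61 (edgeR adjusted p = 0.0201), and the 2 conditions did not overlap. The call of Slc9a3r1 was lost without Meis1-OE library B or C, that of Myc without any single Meis1-OE library or control library B, while Krt19 stayed past the threshold with each library left out in turn.

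The remaining targets that passed are named here after their values were seen. Sgk1, a kinase also induced by glucocorticoids, Ramp3, a partner of the adrenomedullin receptor, and Mybl1, a transcription factor, were higher with log2 fold changes of 1.34, 1.28 and 1.21 (edgeR adjusted p = 0.0139, 0.0192 and 0.0331). Cxcl12, a chemokine, and Igfbp4, a binder of insulin-like growth factors, were lower with log2 fold changes of -1.54 and -1.20 (edgeR adjusted p = 0.0148 and 0.00304). Stc2, a secreted glycoprotein, had 2, 9 and 13 counts in Meis1-OE and 204, 186 and 7 in YFP-CTRL, where library C fell in the range of Meis1-OE and the edgeR adjusted p was 0.0761. Tff1, a secreted peptide that marks estrogen receptor activity in breast cancer, had 1 count over the 6 libraries. Without YFP-CTRL library C the number of targets called was 13, and without Meis1-OE library B or C it was 2. Genes called higher and lower over the whole table were then 2717 and 2498, 115 and 16, and 126 and 18, in that order.

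Of 26 coregulators and partner factors of estrogen receptors, 23 were tested, 0 were higher by edgeR and 2 were lower, with a median log2 fold change of -0.22. A share of 2 in 23 is near the 6.87% called over all genes in either direction, where 2.73% were lower. Over all genes tested, 33.1% had libraries that did not overlap. Coregulator libraries did not overlap for 2 genes that were higher and 8 that were lower. Of the 23 coregulators, 19 had negative and 4 positive log2 fold changes. At an unadjusted p under 0.05 there were 10 of either direction, by DESeq2 5 passed, and without YFP-CTRL library C edgeR called 13. Over all genes, 4205 of 16065 had an unadjusted p under 0.05, and DESeq2 called 1128 higher and 1115 lower. Without library C, edgeR called 2717 higher and 2498 lower of 16443 genes tested. The 2 that were lower were arginine methyltransferases that act as coactivators, Carm1 at 97.1 ± 5.65 CPM in Meis1-OE and 166.7 ± 19.6 CPM in YFP-CTRL and Prmt1 at 118.4 ± 3.52 and 188.2 ± 32.0 CPM (SD, n = 3 each). Their log2 fold changes were -0.78 for Carm1 and -0.67 for Prmt1 (edgeR adjusted p = 0.0146 and 0.0355), and both calls were lost on leaving out any single Meis1-OE library or control library B. That of Prmt1 was also lost on library totals (adjusted p = 0.0832), with the proliferation score as a covariate (0.0979) and with the letter as a block (0.0686). Foxa1, a pioneer factor that opens estrogen receptor sites in breast cells, had 0 counts in all 6 libraries. Gata3, its companion there, had 154, 189 and 181 counts in Meis1-OE and 263, 295 and 84 in YFP-CTRL, which overlapped.

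All 9 chaperones and cochaperones that hold steroid receptors were tested, and 0 passed by edgeR, with a median log2 fold change of -0.13. Of their log2 fold changes, 7 were negative and 2 positive. For 5 chaperones all Meis1-OE libraries lay under all controls, and for 0 above them. At an unadjusted p under 0.05 there were 3 chaperones, and by DESeq2 2 passed. By edgeR 6.87% of all genes tested passed in either direction, and the libraries of 33.1% did not overlap. Over all genes, 4205 of 16065 had an unadjusted p under 0.05, and DESeq2 called 1128 higher and 1115 lower. Estrogen-making and estrogen-clearing enzymes were 19 listed, 17 in the table and 10 tested, of which 0 passed by edgeR, with a median log2 fold change of 0.13. For these, 1 gene had an unadjusted p under 0.05 and DESeq2 called 1. Cyp19a1, the aromatase that makes estrogens, had 1 count over the 6 libraries.

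Genes through which membrane-bound estrogen receptor acts in endothelium were all present. Of 12 tested, 1 was higher and 11 did not pass, a share near the 6.87% called over all genes, with a median log2 fold change of 0.07. Nos3, the endothelial nitric oxide synthase, stood at 1985 CPM in Meis1-OE and 1832 CPM in YFP-CTRL (log2 fold change 0.12, edgeR adjusted p = 0.663). The gene that passed was Pik3r1, a regulatory subunit of PI3 kinase, at 86.5 ± 12.2 CPM in Meis1-OE and 56.8 ± 5.29 CPM in YFP-CTRL (SD, n = 3 each), with a log2 fold change of 0.61 and an edgeR adjusted p of 0.0496, a call that was lost under 9 alternatives, among them leaving out any single library except YFP-CTRL library C. Mitochondrial targets of the estrogen-related receptors were 18 listed, 17 in the table and 16 tested, with 0 called by edgeR and a median log2 fold change of -0.13. Of these, 3 had an unadjusted p under 0.05 and DESeq2 called 1. Over all genes, 4205 of 16065 had such a p, and DESeq2 called 1128 higher and 1115 lower.

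**Figure D4:**
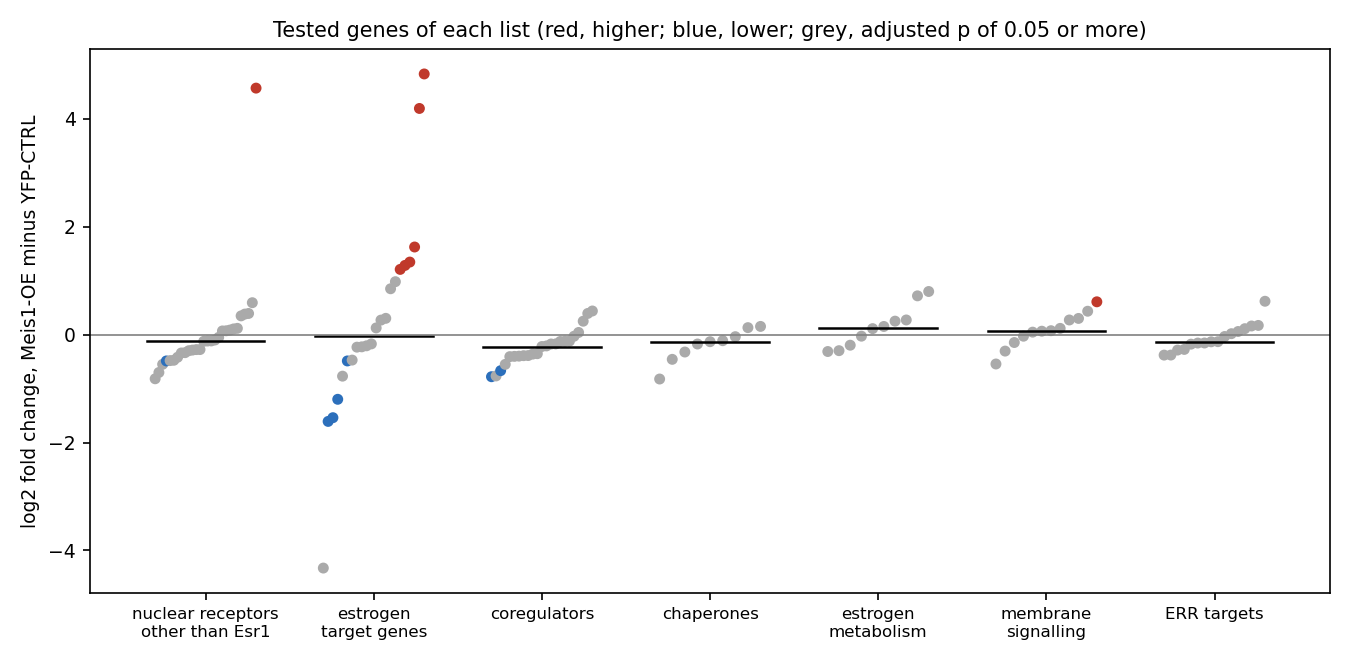
Log2 fold change (Meis1-OE minus YFP-CTRL) of the tested genes of 7 lists, sorted within each list, with a black line at the median. Red points are higher and blue points lower at an edgeR adjusted p under 0.05, and the estrogen targets hold 6 red and 4 blue points while the chaperones, metabolism genes and ERR (estrogen-related receptor) targets hold 0.

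Of the tested genes beside Esr1 on chromosome 10, none was called higher. RefSeq lists 33 other genes within 1 Mb of Esr1, of which 23 were in the table and 13 were tested, with 0 higher, 1 lower and a median log2 fold change of -0.16. Over all genes 4.14% were called higher and 6.87% in either direction, so these counts are near the background. By edgeR 5 had an unadjusted p under 0.05, DESeq2 called 4, and without YFP-CTRL library C edgeR called 7. Of all 16065 genes, 4205 had such a p, and DESeq2 called 1128 genes higher and 1115 lower. Without library C, edgeR called 2717 higher and 2498 lower of 16443 genes tested. The nearest tested gene, Syne1, which encodes a nuclear envelope protein and whose nearest end lies 14.6 kb past Esr1, had a log2 fold change of 0.17 (edgeR adjusted p = 0.454). On the other side Ccdc170, 47.5 kb away, had 4, 16 and 11 counts in Meis1-OE and 2, 3 and 2 in YFP-CTRL, which did not overlap but was too low to be tested. Armt1, 157 kb away, had a log2 fold change of 0.60 and an edgeR adjusted p of 0.0693. The gene that was lower was Rgs17, a brake on G protein signalling 820 kb away, at 0.430 ± 0.0473 CPM in Meis1-OE and 1.76 ± 0.990 CPM in YFP-CTRL (SD, n = 3 each), with a log2 fold change of -2.04 (edgeR adjusted p = 0.0463). This call was lost without any single Meis1-OE library or control library B, and on library totals (adjusted p = 0.0543).

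**Figure D5:**
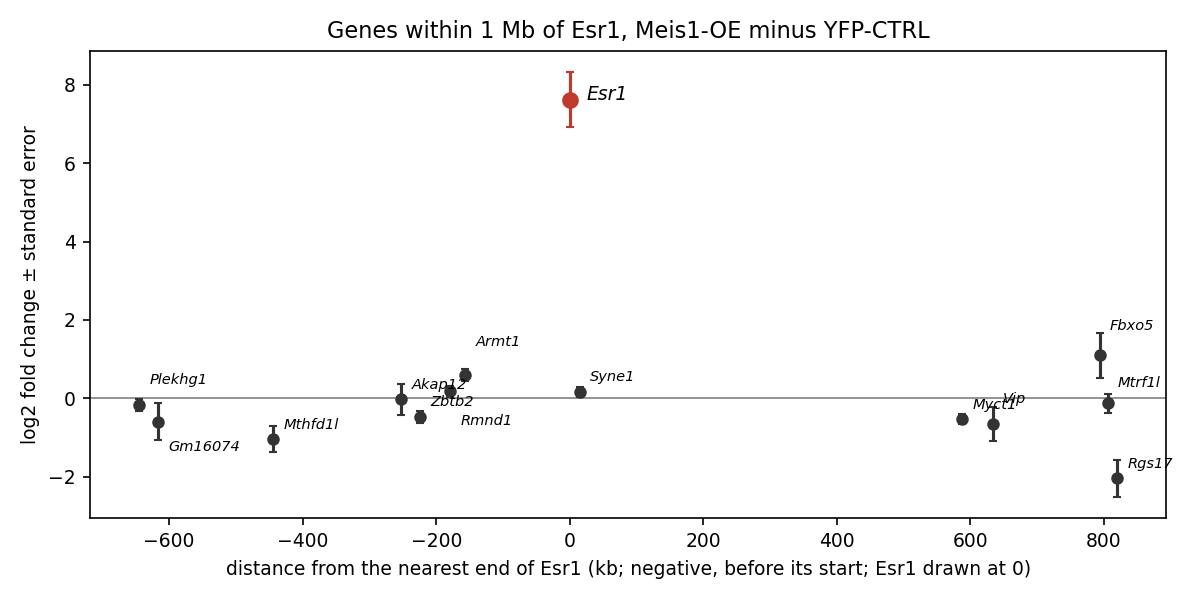
Log2 fold change ± standard error of the 13 tested genes within 1 Mb of Esr1 against their distance in kb from its nearest end, with Esr1 itself drawn in red at 0. Esr1 stands at 7.62 and the other genes between -2.04 and 1.10.

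The genes whose profile over the 6 libraries was most like that of Esr1 were found by the Euclidean distance between gene-centred log2 CPM values among 13013 genes with a mean of at least 1 CPM. They were Rspo3, an enhancer of Wnt signalling, Stra6, the membrane transporter of retinol, Plcb2, a phospholipase C, Gbp10, an interferon-induced GTPase, Aqp8, a water channel, and Islr, a secreted or membrane immunoglobulin-domain protein, at distances of 1.80, 1.84, 1.87, 1.90, 2.46 and 2.50. Greb1 was 36th at a distance of 4.56. This likeness was selected from these libraries, and it carries no test.

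All 6 of these genes were near 0 in controls. Rspo3 had 167, 372 and 291 counts in Meis1-OE and 0 in each control, at least 80.7-fold higher against a floor of 3 counts in each control library. Stra6 had 267, 411 and 364 counts against 0 in each control, at least 101-fold higher on the same floor. Plcb2 had 559, 902 and 946 counts against 7, 5 and 7, with a few counts in every control. Gbp10 had 74, 257 and 270 counts against 1, 0 and 0, and it belongs to a family of near-identical genes whose reads the counting could have split. Aqp8 had 463, 384 and 353 counts against 2, 6 and 2, and Islr had 307, 521 and 497 against 0, 0 and 2.

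Among markers of other cells, no summed level had all Meis1-OE libraries above all controls. The 11 markers of smooth muscle and fibroblasts summed to 15.8 to 17.9 CPM in Meis1-OE and 34.9 to 54.2 CPM in YFP-CTRL, with Dcn and Lum at or under the floor. The list was led by Pdgfra, at a mean of 11.8 CPM in Meis1-OE and 32.7 CPM in YFP-CTRL. Acta2 stood at 0.206, 2.18 and 19.9 CPM in the controls, and Pdgfrb went the other way, at 2.49 CPM in Meis1-OE and 1.70 CPM in YFP-CTRL. The 8 macrophage markers summed to 69.8 to 106 CPM in Meis1-OE and 65.0 to 140 CPM in YFP-CTRL, led by Cd68, with Adgre1, C1qa, C1qb and Tyrobp at or under the floor. The 5 mesothelial and adipocyte markers summed to 31.9 to 72.4 CPM in Meis1-OE and 28.3 to 119 CPM in YFP-CTRL, led by Msln, with Wt1, Adipoq and Plin1 at or under the floor. The 4 lymphatic endothelial markers summed to 178 to 187 CPM in Meis1-OE and 280 to 558 CPM in YFP-CTRL, with Prox1 and Pdpn at or under the floor. This difference lay in Lyve1, at a mean of 79.4 CPM in Meis1-OE and 284 CPM in YFP-CTRL (edgeR adjusted p = 0.0301). Flt4 stood at 103 and 99.5 CPM.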

How the data were processed

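RNA-seq of ribodepleted RNA from sorted aortic EC, 3 libraries per condition, was used. The authors deposited estimated counts per gene, not normalized, in a table of 54429 genes. The build is mm10 per the submitters' processing notes, and the aligner, the counting tool, its strand setting and the annotation were not given in the sources used here. Conditions came from the labels. The labels number the replicates and the columns carry letters, so columns were assigned to conditions only.

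Deposited counts were rounded to whole numbers and analysed with edgeR 4.0.16 in R 4.3.3 (normalization by TMM, filterByExpr, which kept 16065 genes, and the two-sided quasi-likelihood test) and DESeq2 1.42.0 as an alternative, with Benjamini-Hochberg adjustment over all genes tested and a threshold of 0.05. With 3 libraries against 3, an exact permutation test of a single gene cannot go below p = 0.1, so only the fit across genes was used. Levels per kb used the union of exons in a GENCODE annotation of an older mouse build, so lengths are approximate. Totals were 34176592 to 47956569 counts per library. Scripts were tested on simulated data. Exact intervals used scipy 1.17.1 in Python 3.11.15 and figures matplotlib 3.10.9.

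The members, gene lists and tests were chosen with earlier results of these data known. Genes named by rule were the members, Meis1, in each list at most 4 genes past the threshold with the largest absolute log2 fold change, the 5 nuclear receptors of highest mean CPM, and the 6 genes most like Esr1. Same-letter libraries of the 2 conditions deviated from their condition means with correlations of 0.267, 0.120 and 0.0697 for letters A, B and C, so the letters were not taken as pairs. Alternatives were a DESeq2 test, scaling by DESeq2's size factors or by library totals, a minimum of 10 counts in each library or no minimum, a robust edgeR fit, a proliferation score (mean of log2 of CPM plus 1 over 15 cell cycle genes) as a covariate, the letter as a replicate block, a threshold of 0.1, and leaving out each library. A few listed genes are counted but not named here.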

Additional observations from a re-analysis of the deposited data

How the results depend on the processing

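Depth limits what can be said of the 5 members with at most 6 counts in every library, and the 3 libraries per condition and the spread of the controls limit the counts of calls. The cause of the changes below was not tested. Esr1 kept its direction under every alternative in which it was fitted. It could not be fitted with at least 10 counts in every library, which also leaves out Greb1 and Vdr, and its log2 fold change was 10.38 with the proliferation score as a covariate and 6.95 to 8.82 with a library left out, against 7.62.

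Genes called higher and lower numbered 665 and 438. They were 1048 and 179 on library totals, where 85.4% of calls were higher in place of 60.3% and the median of all genes was 0.15 in place of 0.01, 1128 and 1115 by DESeq2, 350 and 290 with the proliferation covariate, 544 and 189 with the letter as a replicate block, and 1138 and 1073 at a threshold of 0.1. With a library left out they ranged from 115 to 2717 and from 16 to 2498. Without Meis1-OE library A, B or C they were 329 and 68, 115 and 16, and 126 and 18. Without control library B they were 204 and 66. Calls of single genes lost on leaving out any of these libraries were lost beside this fall over the whole table.

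Of the members other than Esr1, 1 was called, and 0 with at least 10 counts in every library and 0 to 1 with a library left out. With a library left out, calls ranged from 1 to 9 for nuclear receptors (2 called), 2 to 13 for estrogen targets (10), 0 to 13 for coregulators (2), 0 to 2 for chaperones (0), 0 to 3 for estrogen metabolism (0), 0 to 2 for membrane signalling (1), 0 to 5 for ERR targets (0) and 0 to 7 for neighbours of Esr1 (1). The highest of these numbers came without YFP-CTRL library C. DESeq2 called 5 coregulators, 2 chaperones, 1 metabolism gene, 1 ERR target and 4 neighbours. A threshold of 0.1 called 4 receptors, 6 coregulators, 2 chaperones, 1 metabolism gene, 2 membrane genes, 1 ERR target and 3 neighbours. Nuclear receptors called were 1 with no filter and 1 with at least 10 counts in every library. Library totals called 1 metabolism gene. Membrane genes called were 0 with DESeq2's size factors, 0 with no filter and 0 with the covariate, and coregulators called were 1 with the covariate. The replicate block called 1 receptor, 1 coregulator, 0 membrane genes and 0 neighbours. It left the calls of Greb1 and Vdr as they were, with log2 fold changes of 5.12 and 4.55, and lost those of Rara, Prmt1, Pik3r1 and Rgs17. The letters are not known to mark pairs.

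Log2 fold changes that turned sign, none past the threshold, were those of Nr2f2 (0.010 on library totals and 0.23 with the covariate), Rarg (0.095 on library totals), Nr3c1 (0.042 with the covariate) and Nr1d1 (0.18 with the covariate). Over the 23 genes followed singly, 285 of 337 values under the alternatives kept direction and side of the threshold, 42 were no longer past it, 5 newly passed it and 5 turned sign.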
